A study of Arabidopsis thaliana with 8 samples.

Results

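The 10 genes described here carry out or control iron uptake in Arabidopsis roots. They are IRT1 (AT4G19690), FRO2 (AT1G01580), FIT (AT2G28160), BHLH38 (AT3G56970), BHLH39 (AT3G56980), BHLH100 (AT2G41240), BHLH101 (AT5G04150), PYE (AT3G47640), BTS (AT3G18290) and NAS4 (AT1G56430). They were chosen by locus identifier, and all 10 were found among the 33557 genes of each of the 3 deposited tables. Dicot roots take up iron from soil by acidifying it, reducing ferric chelates at the epidermal surface and importing ferrous iron. FRO2 is the root ferric-chelate reductase and IRT1 the main ferrous iron transporter. FIT, a bHLH transcription factor, activates both genes as a dimer with a bHLH of subgroup Ib, whose 4 genes are BHLH38, BHLH39, BHLH100 and BHLH101. PYE is a bHLH repressor of iron distribution genes, and BTS is an E3 ubiquitin ligase that holds the iron-deficiency response down. NAS4 makes nicotianamine, a chelator that moves iron within the plant.

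The RNA came from the last 1 cm of roots of 7-day-old seedlings of the Columbia background grown on 1/2 MS medium, and the labels name no change in iron supply. The 8 libraries form 4 groups of 2: wild type treated with 100 µM ABA (abscisic acid, a stress hormone) for 3 h (Col+ABA), the bzr1-D/bin2-1 double mutant, the bin2-1 mutant, and wild type without ABA (Col-ABA). The bin2-1 allele makes a hyperactive form of the GSK3-like kinase BIN2, which represses brassinosteroid signalling, and both mutant groups carry it. The bzr1-D allele makes a stabilised form of BZR1, a transcription factor that BIN2 holds off. The labels do not say whether the mutant roots received ABA, nor whether the second library of a group, labelled a repeat, came from separately grown plants. No treatment time is listed for Col-ABA roots, so whether they had a mock treatment is not known here. Each table gives 1 FPKM value per group (fragments scaled by transcript length and sequencing depth), so no replicate error stands beside a level, the depth is unknown, and p-values speak for these libraries only. A gene was called where the authors' q, their p adjusted over the table, was under 0.05. The comparisons of Col+ABA and of bin2-1 share the Col-ABA libraries, and those of bin2-1 and of bzr1-D/bin2-1 share the bin2-1 libraries.

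Markers of the root were present in every group: the summed level of 4 root hair genes lay between 80.0 and 223 FPKM by the authors' deposited tables, and that of 2 endodermal genes between 126 and 224 FPKM. The guard cell gene FAMA was listed at 0 in all groups, and the 5 leaf genes summed to 8.46 to 11.3 FPKM, with LHCB1.1 at 0.471 FPKM or less, by the authors' deposited tables. Most of that sum was RBCS1A, at 2.38 to 3.90 FPKM, and KCS10, at 5.54 to 7.86 FPKM, by the authors' deposited tables.

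The region just before the annotated start of 5 of the genes is shown, picked by how these genes moved. IRT1 and its activator FIT were called in opposite directions in bin2-1, and in the same direction with ABA and with bzr1-D. The neighbouring pair BHLH38 and BHLH39 were called in opposite directions with bzr1-D. Both were called lower in bin2-1, and neither was called with ABA. BTS, the E3 ligase gene, was called higher with ABA. Each sequence is the 250 bases upstream of the gene in RefSeq TAIR10.1, printed 5′ to 3′ on the strand of the gene, and capitals mark every match to CANNTG, the E-box that bHLH proteins bind. The deposited tables were made with TAIR10 and hold no coordinates.
IRT1, chr4:10707094-10707343, plus strand: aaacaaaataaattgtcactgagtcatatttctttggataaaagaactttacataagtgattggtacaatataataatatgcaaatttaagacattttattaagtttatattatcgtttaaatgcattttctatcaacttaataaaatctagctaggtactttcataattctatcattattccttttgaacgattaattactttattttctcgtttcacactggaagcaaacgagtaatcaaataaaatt
FIT, chr2:12004408-12004657, plus strand: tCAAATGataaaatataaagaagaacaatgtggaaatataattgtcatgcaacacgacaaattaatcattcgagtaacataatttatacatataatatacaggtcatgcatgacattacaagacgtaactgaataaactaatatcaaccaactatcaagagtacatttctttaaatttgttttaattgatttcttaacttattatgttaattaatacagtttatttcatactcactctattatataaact
BHLH38, chr3:21085246-21085495, minus strand: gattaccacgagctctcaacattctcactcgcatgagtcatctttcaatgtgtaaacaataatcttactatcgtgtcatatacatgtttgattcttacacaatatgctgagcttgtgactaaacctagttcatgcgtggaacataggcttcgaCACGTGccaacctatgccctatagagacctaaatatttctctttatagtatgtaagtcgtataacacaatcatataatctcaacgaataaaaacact
BHLH39, chr3:21087711-21087960, minus strand: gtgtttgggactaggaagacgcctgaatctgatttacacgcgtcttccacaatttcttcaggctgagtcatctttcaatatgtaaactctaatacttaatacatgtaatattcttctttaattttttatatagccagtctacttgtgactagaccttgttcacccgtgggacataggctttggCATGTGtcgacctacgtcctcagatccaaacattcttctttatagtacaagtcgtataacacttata
BTS, chr3:6273716-6273965, plus strand: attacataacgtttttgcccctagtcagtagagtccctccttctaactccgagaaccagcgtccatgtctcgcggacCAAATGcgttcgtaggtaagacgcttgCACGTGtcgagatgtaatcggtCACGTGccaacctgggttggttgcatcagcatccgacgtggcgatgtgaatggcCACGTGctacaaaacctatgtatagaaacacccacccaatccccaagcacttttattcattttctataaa

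CANNTG occurred in 55.3% of 27443 protein-coding genes' windows of the same length, searched on both strands. None was found in the IRT1 window. FIT had 1 match (CAAATG), which began 249 bases before the annotated start. BHLH38 had CACGTG at 97 bases before its start, and BHLH39 had CATGTG at 67 bases before its start; the longest run of letters their windows share is the 16 bases tgagtcatctttcaat. BTS had 1 match to CAAATG and 3 to CACGTG, a palindrome that counts as 1 match for both strands. CACGTG was found in 6.49% of all windows, and 3 or more copies in 0.0984%. BTS also had 7 matches to ACGTG, the core of the ABA response element, of which 6 fall inside the CACGTG copies, which hold it on both strands. FRO2, BHLH38 and BHLH100 had 2 matches each, and those of BHLH38 and of BHLH100 lie in 1 CACGTG per window. With ABA, FRO2 and BHLH38 were not called and BHLH100 was not tested. PYE, called higher with ABA, had 1 match, and the other 5 genes had 0. ACGTG occurred in 22.9% of all windows, and 7 or more matches in 0.0510%. The cut-offs of 3 and 7 copies are the BTS counts themselves, and BTS was picked after its values were seen. These 2 small shares rest largely on the same sites and test nothing. CGTGTG, a form of the brassinosteroid response element, was found in the windows of BHLH101 and PYE and in 5.37% of all windows. CGTGCG, another form searched, was in none of the 10 genes' windows and in 1.57% of all windows. CACGTG, held by BHLH38, BHLH100 and BTS, was also searched as a form of this element. These matches describe letters in short windows and show no binding.

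In untreated wild type the regulators PYE and BTS stood highest, at 23.7 and 17.8 FPKM by the authors' deposited table of bin2-1 against Col-ABA. BHLH39 followed with 14.3 FPKM and FIT with 8.26 FPKM by the same authors' deposited table. IRT1 stood at 2.67 FPKM and FRO2 at 1.13 FPKM there, both below their activator FIT. BHLH101 and BHLH100 were the lowest of the 10, at 0.322 and 0.233 FPKM by the authors' deposited table. FPKM is scaled by transcript length, so levels of different genes can be set side by side within a table, but no replicate spread is at hand to say which neighbours in these orders differ. For levels across tables, the ABA table was multiplied by 1.07 and the bzr1-D table by 0.959, the median ratios of the group each shares with the bin2-1 table.

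**Figure D1:**
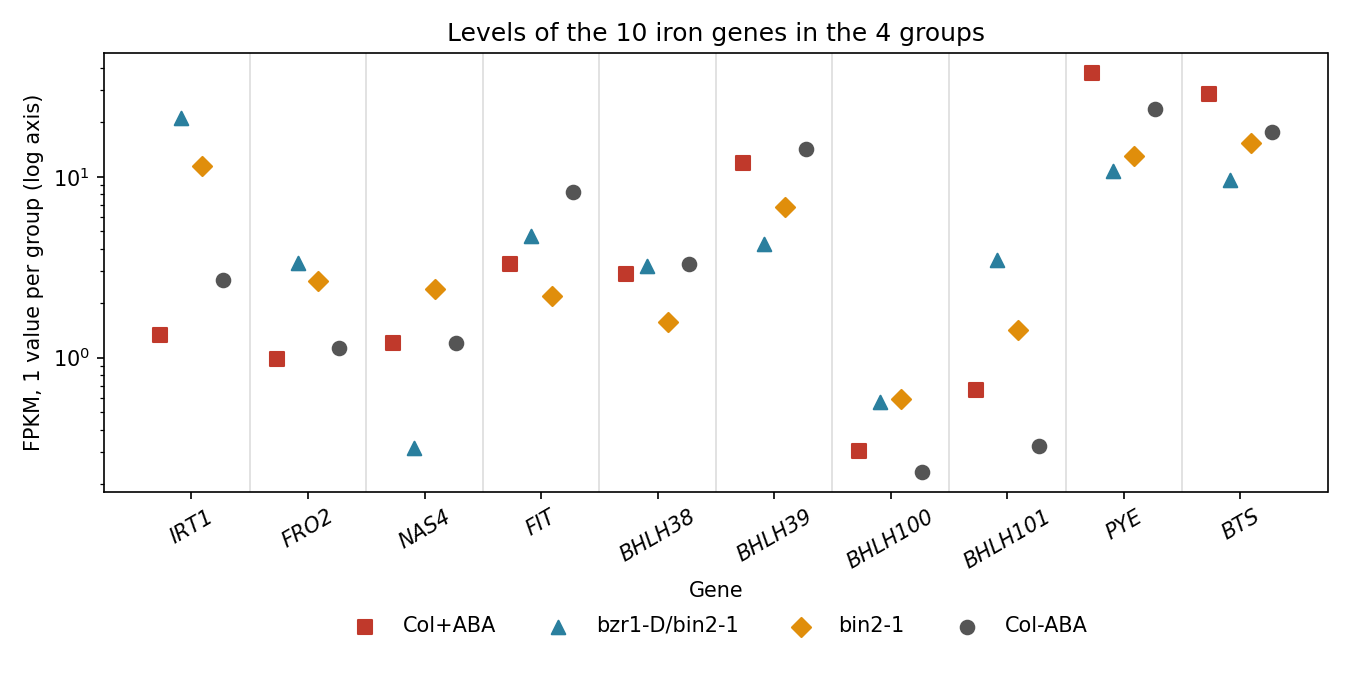
Level of each of the 10 genes in Col+ABA, bzr1-D/bin2-1, bin2-1 and Col-ABA roots, in FPKM on a log axis, with 1 point per group and no error because each table holds 1 value per group; the ABA and bzr1-D tables are rescaled by their shared groups. IRT1 runs from 1.33 FPKM in Col+ABA to 21.2 FPKM in bzr1-D/bin2-1, while FIT is highest in Col-ABA at 8.26 FPKM.

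On that common scale the order of the genes differed between groups. In bzr1-D/bin2-1 roots IRT1 was first of the 10 at 21.2 FPKM and NAS4 last at 0.315 FPKM. In bin2-1 roots BTS was first at 15.3 FPKM, with PYE and IRT1 next at 13.1 and 11.5 FPKM, and FIT was the seventh at 2.18 FPKM. Col+ABA roots had PYE first, at 37.5 FPKM, as had Col-ABA roots.

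In wild-type roots with ABA the transporter gene IRT1 and its activator FIT were lower than without it, and the regulators PYE and BTS were higher. IRT1 had 1.25 FPKM in Col+ABA and 2.51 FPKM in Col-ABA, and FIT had 3.11 FPKM in Col+ABA and 7.75 FPKM in Col-ABA, by the authors' deposited table. IRT1 was 2.01-fold lower (q = 0.0300) and FIT 2.49-fold lower (q = 0.000385) by the authors' deposited table, and a q under 0.01 would not call IRT1. PYE rose to 35.2 FPKM in Col+ABA, against 22.2 FPKM in Col-ABA, a log2 fold change of 0.66 (q = 0.000385 by the authors' deposited table). BTS rose to 26.9 FPKM in Col+ABA, against 16.7 FPKM in Col-ABA, a log2 fold change of 0.69 (q = 0.000385 by the authors' deposited table). Both rises were smaller than 2-fold. The non-hair epidermal markers GL2 and WER were both called lower with ABA and summed to 25.2 FPKM in Col+ABA and 37.8 FPKM in Col-ABA by the authors' deposited table. None of the 4 root hair markers was called, and they summed to 80.0 FPKM in Col+ABA and 84.5 FPKM in Col-ABA. Markers of inner tissues went both ways by the authors' deposited table. Of the 4 stele markers, SUC2 was called higher (69.7 FPKM in Col+ABA, 33.9 FPKM in Col-ABA). APL was called lower (11.6 FPKM in Col+ABA, 16.3 FPKM in Col-ABA), and SHR and AHK4 were not called (log2 fold changes -0.14 and -0.10). The sum of the 4, 105 FPKM in Col+ABA and 76.5 FPKM in Col-ABA, was thus higher through SUC2 alone. The endodermal CASP1 was called higher and SCR lower, the root cap gene SMB lower and the quiescent centre gene WOX5 higher (4.47 FPKM in Col+ABA, 1.82 FPKM in Col-ABA), by the authors' deposited table. The root cap genes BRN1 and FEZ, the meristem gene PLT1 and AT1G62500, listed for the cortex, were not called. The part of these markers in the result was not tested.

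The other 6 genes were not called with ABA. FRO2, the reductase gene, had 0.918 FPKM in Col+ABA and 1.06 FPKM in Col-ABA (log2 fold change -0.21, q = 0.664 by the authors' deposited table). NAS4 had 1.12 FPKM in Col+ABA and 1.13 FPKM in Col-ABA (q = 0.983 by the authors' deposited table). BHLH39 had 11.2 FPKM in Col+ABA and 13.4 FPKM in Col-ABA (-0.26, q = 0.360), and BHLH38 had 2.73 FPKM in Col+ABA and 3.09 FPKM in Col-ABA (-0.17, q = 0.759), by the authors' deposited table. BHLH101 had 0.622 FPKM in Col+ABA and 0.303 FPKM in Col-ABA, a log2 fold change of 1.04 that did not pass (q = 0.374 by the authors' deposited table). BHLH100 had 0.284 FPKM in Col+ABA and 0.219 FPKM in Col-ABA and was not tested by the authors, whose p was 1. In all, 2 of the 9 tested genes rose and 2 fell, where 24.6% of the 20126 tested genes of the table were called, 15.1% as higher and 9.51% as lower. The median log2 fold change was -0.17 over the 9 tested genes and 0.01 over all tested genes.

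In bin2-1 roots IRT1 and FRO2 stood higher than in wild type while FIT, their activator, stood lower. IRT1 had 11.5 FPKM in bin2-1 and 2.67 FPKM in Col-ABA, 4.28-fold higher (q = 0.000188 by the authors' deposited table). FRO2 had 2.66 FPKM in bin2-1 and 1.13 FPKM in Col-ABA, 2.35-fold higher (1.23 on the log2 scale, q = 0.000188 by the authors' deposited table). FIT had 2.18 FPKM in bin2-1 and 8.26 FPKM in Col-ABA, a log2 fold change of -1.92 (q = 0.000188 by the authors' deposited table). The level of IRT1 divided by that of FIT was thus 5.25 in bin2-1 and 0.324 in Col-ABA, and that of FRO2 divided by FIT was 1.22 in bin2-1 and 0.137 in Col-ABA.

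Root epidermis, where iron is taken up, also differed by its markers. All 4 root hair markers were called higher in bin2-1, with a summed level of 214 FPKM in bin2-1 and 90.1 FPKM in Col-ABA; COBL9 and EXPA7 had log2 fold changes of 1.54 and 2.28 by the authors' deposited table. The 2 non-hair epidermal markers summed to 25.8 FPKM in bin2-1 and 40.3 FPKM in Col-ABA, with GL2 called lower (-1.24 by the authors' deposited table) and WER not called (q = 0.154 by the authors' deposited table). AT1G62500, the 1 gene listed as a marker of the cortex, had 1.44 FPKM in bin2-1 and 18.3 FPKM in Col-ABA (-3.66 by the authors' deposited table). Of the other root markers, WOX5 had 10.7 FPKM in bin2-1 and 1.94 FPKM in Col-ABA, the root cap gene BRN1 16.7 FPKM in bin2-1 and 5.36 FPKM in Col-ABA, and the stele gene AHK4 17.0 FPKM in bin2-1 and 8.26 FPKM in Col-ABA, all called higher by the authors' deposited table, as was FEZ. CASP1 was called lower, with 102 FPKM in bin2-1 and 167 FPKM in Col-ABA by the authors' deposited table, as were SMB and APL. SCR, SHR, SUC2 and PLT1 were not called. The part of these marker differences in the iron gene results was not tested, and in bulk RNA fewer cells of a type and less RNA per cell cannot be told apart.

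The subgroup Ib genes went both ways in bin2-1. BHLH39 had 6.77 FPKM in bin2-1 and 14.3 FPKM in Col-ABA (log2 fold change -1.08, q = 0.000188 by the authors' deposited table). BHLH38 had 1.58 FPKM in bin2-1 and 3.29 FPKM in Col-ABA (-1.06, q = 0.00997 by the authors' deposited table). BHLH101 rose to 1.42 FPKM in bin2-1, against 0.322 FPKM in Col-ABA, a log2 fold change of 2.14 (q = 0.0381 by the authors' deposited table), which a q under 0.01 would not call and which a pseudocount of 1 FPKM reduces to 0.873. BHLH100 had 0.589 FPKM in bin2-1 and 0.233 FPKM in Col-ABA (1.34, q = 0.210 by the authors' deposited table). Summed, the 4 genes had 10.4 FPKM in bin2-1 and 18.2 FPKM in Col-ABA; BHLH39 made up 65.3% of the sum in bin2-1 and 78.8% in Col-ABA, and BHLH101 13.7% in bin2-1 and 1.78% in Col-ABA.

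Of the remaining genes, NAS4 rose to 2.38 FPKM in bin2-1, against 1.202 FPKM in Col-ABA (log2 fold change 0.99, q = 0.00656 by the authors' deposited table). PYE fell to 13.1 FPKM in bin2-1, against 23.7 FPKM in Col-ABA (-0.85, q = 0.000188 by the authors' deposited table). BTS had 15.3 FPKM in bin2-1 and 17.8 FPKM in Col-ABA and was not called (-0.21, q = 0.210 by the authors' deposited table). Altogether 4 of the 10 genes rose and 4 fell in bin2-1, in a table where 51.0% of 20404 tested genes were called, 25.4% as higher and 25.6% as lower. The median log2 fold change of the 10 genes was 0.39, and that of all tested genes -0.01.

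**Figure D2:**
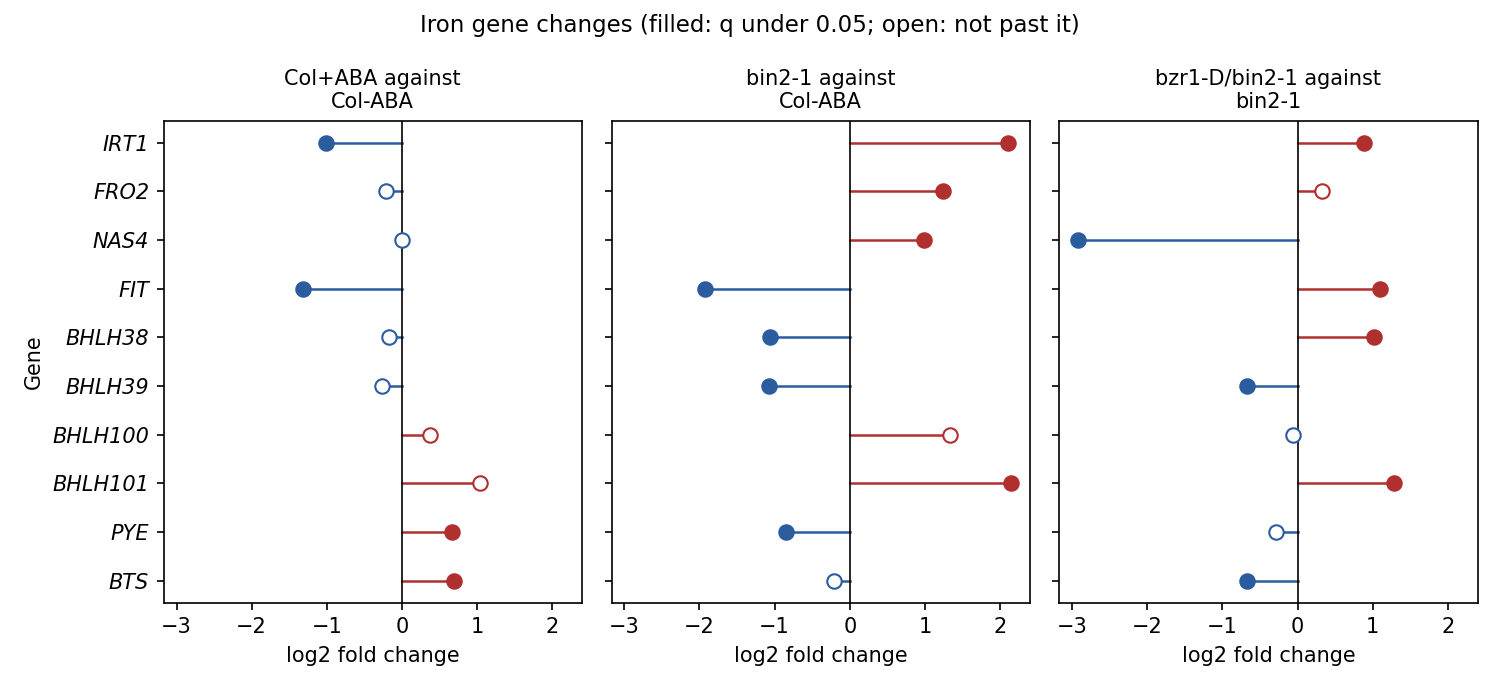
Log2 fold change of each of the 10 genes by the authors' deposited tables for Col+ABA against Col-ABA, bin2-1 against Col-ABA and bzr1-D/bin2-1 against bin2-1; filled points have q under 0.05 and open points do not. IRT1 and FIT lie on the same side of 0 with ABA (-1.004 and -1.32) and in bzr1-D/bin2-1 (0.88 and 1.0995), and on opposite sides in bin2-1 (2.099 and -1.92).

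Adding bzr1-D to bin2-1 raised both IRT1 and FIT, and lowered NAS4 more than any other of the 10. IRT1 had 22.1 FPKM in bzr1-D/bin2-1 and 11.9 FPKM in bin2-1 (log2 fold change 0.88, q = 0.000451 by the authors' deposited table). FIT had 4.87 FPKM in bzr1-D/bin2-1 and 2.27 FPKM in bin2-1, 2.14-fold higher (q = 0.00121 by the authors' deposited table). NAS4 had 0.329 FPKM in bzr1-D/bin2-1 and 2.48 FPKM in bin2-1, 7.55-fold lower (-2.92, q = 0.00121 by the authors' deposited table). The size of this fall rests on the low level in bzr1-D/bin2-1, and with a pseudocount of 1 FPKM the log2 fold change was -1.39. FRO2 had 3.48 FPKM in bzr1-D/bin2-1 and 2.78 FPKM in bin2-1 and was not called (0.33, q = 0.213 by the authors' deposited table). The level of IRT1 divided by that of FIT was 4.53 in bzr1-D/bin2-1 and 5.25 in bin2-1.

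BHLH38 and BHLH39, neighbours on chromosome 3, moved in opposite directions. BHLH38 had 3.34 FPKM in bzr1-D/bin2-1 and 1.65 FPKM in bin2-1 (log2 fold change 1.02, q = 0.0176 by the authors' deposited table). BHLH39 had 4.43 FPKM in bzr1-D/bin2-1 and 7.06 FPKM in bin2-1 (-0.67, q = 0.0197 by the authors' deposited table). Neither would be called at a q under 0.01. The level of BHLH39 divided by that of BHLH38 was 1.33 in bzr1-D/bin2-1 and 4.29 in bin2-1; it was 4.09 in Col+ABA and 4.35 in Col-ABA. BHLH101 rose to 3.62 FPKM in bzr1-D/bin2-1, against 1.48 FPKM in bin2-1 (1.29, q = 0.00920 by the authors' deposited table). BHLH100 had 0.589 FPKM in bzr1-D/bin2-1 and 0.613 FPKM in bin2-1 (-0.06, q = 0.964 by the authors' deposited table). The 4 genes summed to 12.0 FPKM in bzr1-D/bin2-1 and 10.8 FPKM in bin2-1, and BHLH101 made up 30.2% of that sum in bzr1-D/bin2-1 and 13.7% in bin2-1. BHLH39 made up 37.0% in bzr1-D/bin2-1 and 65.3% in bin2-1.

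The annotation bears on 2 of these genes. BHLH38 overlaps PIP5K4, on the other strand, by 386 bases in RefSeq TAIR10.1, and BHLH101 overlaps GLU1, also on the other strand, by 79 bases. Whether counting used strand is not given here, so reads of the partner may be counted with the gene. PIP5K4 was not called in any of the 3 comparisons, with log2 fold changes from -0.29 to -0.01 by the authors' deposited tables. GLU1 had 0.369 FPKM in bzr1-D/bin2-1 and 0.699 FPKM in bin2-1 and was called lower (-0.92, q = 0.00319 by the authors' deposited table), opposite to BHLH101; it was not called in the other two comparisons. BHLH38 and BHLH39 are similar in sequence, as are IRT1 and IRT2 and the NAS genes, and may share reads.

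**Figure D3:**
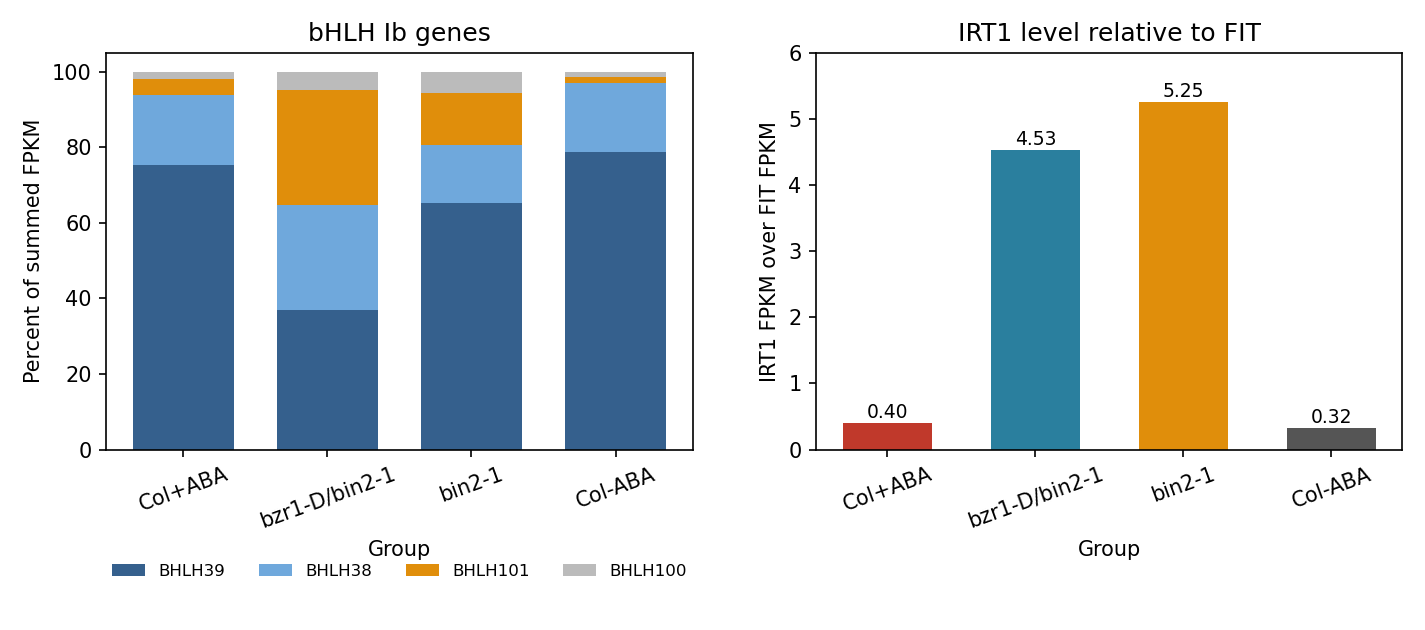
Left, the share of each subgroup Ib gene in their summed FPKM (percent) in Col+ABA, bzr1-D/bin2-1, bin2-1 and Col-ABA roots; right, the FPKM of IRT1 divided by that of FIT in the same groups. BHLH101 makes up 30.2% in bzr1-D/bin2-1 and 1.78% in Col-ABA, and the IRT1 to FIT quotient is 4.53 in bzr1-D/bin2-1, 5.25 in bin2-1 and 0.324 in Col-ABA.

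Of the regulators BTS and PYE, BTS was called lower with bzr1-D and PYE was not called. BTS fell to 10.01 FPKM in bzr1-D/bin2-1, against 16.0 FPKM in bin2-1 (log2 fold change -0.67, q = 0.000451 by the authors' deposited table). PYE had 11.2 FPKM in bzr1-D/bin2-1 and 13.7 FPKM in bin2-1 and was not called (-0.28, q = 0.222 by the authors' deposited table). With bzr1-D, 4 of the 10 genes rose and 3 fell, where 24.8% of 20410 tested genes were called, 11.9% as higher and 12.8% as lower. The median log2 fold change was 0.13 over the 10 genes and -0.01 over all tested genes. The root hair markers summed to 199.9 FPKM in bzr1-D/bin2-1 and 223 FPKM in bin2-1, with RHD6 called lower (-0.54 by the authors' deposited table) and the other 3 not called. GL2 and WER, the non-hair markers, were both called higher (0.93 and 0.59 by the authors' deposited table). AT1G62500, CASP1, SUC2, BRN1 and PLT1 were also called higher and WOX5 lower, with 4.06 FPKM in bzr1-D/bin2-1 and 11.2 FPKM in bin2-1 for WOX5 by the authors' deposited table. SCR, SHR, AHK4, APL, SMB and FEZ were not called. The part of these markers in the result was not tested.

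Side by side, FIT and BHLH38 were lower in bin2-1 than in wild type and higher in bzr1-D/bin2-1 than in bin2-1, and NAS4 was higher and then lower. IRT1 and BHLH101 were higher in both comparisons, and BHLH39 was lower in both. Of the 10 genes 6 were called in both, 3 in opposite and 3 in the same direction. Of all 33557 genes, 3500 were called in both, 2622 in opposite and 878 in the same direction. The shared bin2-1 libraries are the tested group in the bin2-1 comparison and the reference in the bzr1-D comparison. An error in them pushes the comparisons in opposite directions, so these counts are not independent of each other. The double mutant was set against wild type by adding the log2 fold changes of both tables, with no test: IRT1 came to 2.98, 7.91-fold higher in bzr1-D/bin2-1 than in Col-ABA, BHLH101 to 3.43 and FRO2 to 1.56. BHLH38 came to -0.04 and FIT to -0.82, while NAS4 stood at -1.93, BHLH39 at -1.75, PYE at -1.13 and BTS at -0.89 by the same sum.

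Other genes of iron and metal handling were read from 6 lists of 61 genes, of which the list of uptake and coumarin secretion held 13. That list is not confined to iron, since it holds the copper transporter gene COPT2. Which metal the reductases of FRO4 and FRO5 serve was not examined, so its counts are not counts of iron uptake alone. With ABA, 0 of 10 tested genes of uptake and coumarin secretion rose and 4 fell, at a median log2 fold change of -0.42; this and the other lists with ABA stand beside 15.1% higher and 9.51% lower among all tested genes. The reductase gene FRO4 had 3.10 FPKM in Col+ABA and 12.4 FPKM in Col-ABA (-2.00), and NRAMP1, a manganese and iron transporter gene, had 16.0 FPKM in Col+ABA and 44.2 FPKM in Col-ABA (-1.47), both at q = 0.000385 by the authors' deposited table. IRT2, the close relative of IRT1, had 8.61 FPKM in Col+ABA and 11.6 FPKM in Col-ABA and was not called (q = 0.0859 by the authors' deposited table). It was also not called in bin2-1 (log2 fold change 0.33, q = 0.0891) or with bzr1-D (0.20, q = 0.393) by the authors' deposited tables. Iron storage went the other way: 4 of 7 tested genes rose, all ferritins, and 1 fell, at a median of 0.67. FER1, the iron-storing ferritin gene, had 721 FPKM in Col+ABA and 173 FPKM in Col-ABA, and FER3 had 155 FPKM in Col+ABA and 85.1 FPKM in Col-ABA (log2 fold changes 2.06 and 0.86 by the authors' deposited table). The gene that fell was VTL5, a vacuolar iron transporter-like gene (-1.62, q = 0.000385 by the authors' deposited table).

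For iron distribution and chelators, 4 of 11 tested genes rose with ABA and 2 fell (median 0.37). NRAMP3, which exports metals from the vacuole, and OPT3, a phloem iron transporter gene, had log2 fold changes of 0.82 and 0.79, and the nicotianamine synthase gene NAS1 had 6.37 FPKM in Col+ABA and 25.2 FPKM in Col-ABA (-1.98), by the authors' deposited table. YSL3, a transporter of metal-nicotianamine complexes, stood at -0.61 by the authors' deposited table. The list of zinc and other metal transport had 1 rise and 5 falls among 10 tested genes (median -0.37): MTP3, a vacuolar zinc transporter gene, at 0.996, FPN2, a vacuolar ferroportin gene, at -1.32 and ZIP9 at -1.31 by the authors' deposited table. Among 10 tested regulators upstream of the subgroup Ib genes 0 were called at a median of -0.11, and 1, bHLH121, had an unadjusted p under 0.05. The list of 4 further bHLH genes and ZAT12 had 3 rises and 0 falls among 4 tested genes (median 0.73). AT2G22760, a bHLH gene, had 1.23 FPKM in Col+ABA and 0.447 FPKM in Col-ABA (1.46, q = 0.0335), and ZAT12, whose zinc finger protein binds FIT, had 746 FPKM in Col+ABA and 385 FPKM in Col-ABA (0.96, q = 0.000385), by the authors' deposited table.

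In bin2-1, uptake and coumarin genes had 4 rises and 3 falls among 11 tested (median 0.33). Since 25.4% of all tested genes were called higher and 25.6% lower in bin2-1, a list with about 5 of 10 genes called is near that background. FRO5 had 11.3 FPKM in bin2-1 and 2.82 FPKM in Col-ABA (2.00) while its tandem neighbour FRO4 had 2.24 FPKM in bin2-1 and 13.2 FPKM in Col-ABA (-2.56), by the authors' deposited table; the genes are similar and may share reads. CYP82C4, a coumarin hydroxylase gene, had 0.529 FPKM in bin2-1 and 0.156 FPKM in Col-ABA (1.76, q = 0.0226), a call that a filter at 1 FPKM ends, and COPT2, a copper transporter gene, stood at -1.64 by the authors' deposited table. Iron distribution genes had 6 rises and 4 falls among 11 tested (median 0.37). FRD3, the citrate exporter that loads iron into xylem, had 32.9 FPKM in bin2-1 and 3.57 FPKM in Col-ABA, 9.22-fold higher, and NAS2 had 17.9 FPKM in bin2-1 and 3.33 FPKM in Col-ABA (2.42), by the authors' deposited table. YSL3 had 43.1 FPKM in bin2-1 and 143 FPKM in Col-ABA (-1.73), and NAS3 had 0.0502 FPKM in bin2-1 and 0.479 FPKM in Col-ABA (-3.25, q = 0.0374), by the authors' deposited table; the filter at 1 FPKM also ends the call of NAS3.

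Storage genes had 2 rises and 2 falls among 7 tested in bin2-1 (median -0.01). VTL1 and VTL2, annotated as repressed when iron is short, both rose by 2.12 on the log2 scale, and FER1 and FER3 stood at -0.54 and -0.53, by the authors' deposited table. VTL5, the other vacuolar iron transporter-like gene of the list, stood at -0.005 and was not called. Upstream regulators had 1 rise and 2 falls among 10 tested (median -0.20): AT1G18910, a zinc finger gene, at 0.72, bHLH121 at -1.18 and AT1G47395 at -1.01 (q = 0.0144) by the authors' deposited table. The further bHLH genes and ZAT12 had 2 rises and 2 falls among 4 tested (median 0.20), with AT2G22760 at 3.10 (4.09 FPKM in bin2-1 and 0.477 FPKM in Col-ABA), NAI1, a bHLH of endoplasmic reticulum bodies, at 1.498, AT4G37850 at -1.41 and ZAT12 at -1.10 by the authors' deposited table. Zinc and other metal transport had 0 rises and 4 falls among 10 tested (median -0.14), with ZIP9 at -1.43 and ZIP2 at -1.13 by the authors' deposited table.

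With bzr1-D, 5 of 7 tested storage genes rose and 0 fell (median 0.47), where 11.9% of all tested genes were called higher and 12.8% lower. At a q under 0.01 the storage calls came to 2, and with at least 2-fold required to 0. FER1 had 225 FPKM in bzr1-D/bin2-1 and 132 FPKM in bin2-1 (0.77), and FER3 had 99.4 FPKM in bzr1-D/bin2-1 and 65.3 FPKM in bin2-1 (0.61), by the authors' deposited table. Distribution genes had 1 rise and 6 falls among 10 tested (median -0.47): YSL2 stood at 0.37 (q = 0.0434), FRD3 at -0.99 and OPT3 at -0.87 by the authors' deposited table. Uptake and coumarin genes had 4 rises and 2 falls among 11 tested (median 0.20). FRO5 had 38.0 FPKM in bzr1-D/bin2-1 and 11.8 FPKM in bin2-1 (1.69), and COPT2 stood at 0.77, by the authors' deposited table. F6'H1, the enzyme gene that opens coumarin synthesis, had 58.2 FPKM in bzr1-D/bin2-1 and 144 FPKM in bin2-1 (-1.31), and MYB10, a factor of the iron response, had 1.77 FPKM in bzr1-D/bin2-1 and 4.31 FPKM in bin2-1 (-1.29), by the authors' deposited table.

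Of the other lists in this comparison, further bHLH genes and ZAT12 had 0 rises and 3 falls among 4 tested (median -1.08). AT2G22760 had 0.389 FPKM in bzr1-D/bin2-1 and 4.26 FPKM in bin2-1 (-3.45), and ZAT12 had 64.4 FPKM in bzr1-D/bin2-1 and 199.6 FPKM in bin2-1 (-1.63), by the authors' deposited table. Upstream regulators had 1 rise and 1 fall among 10 tested (median -0.19): AT1G74770 stood at 1.56 and AT1G18910 at -0.78, both annotated as zinc finger proteins, by the authors' deposited table. Zinc and other metal transport had 3 rises and 2 falls among 10 tested (median -0.05), with ZIP5 at 0.95, ZIP2 at 0.72, ZIP4 at -0.99 and HMA4, a zinc-exporting ATPase gene, at -0.41 by the authors' deposited table. Over all 6 lists, 12 of 52 tested genes rose and 12 fell with ABA, 15 of 53 rose and 17 fell in bin2-1, and 14 of 52 rose and 14 fell with bzr1-D. Over all tested genes the called shares were 24.6% with ABA, 51.0% in bin2-1 and 24.8% with bzr1-D.

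**Figure D4:**
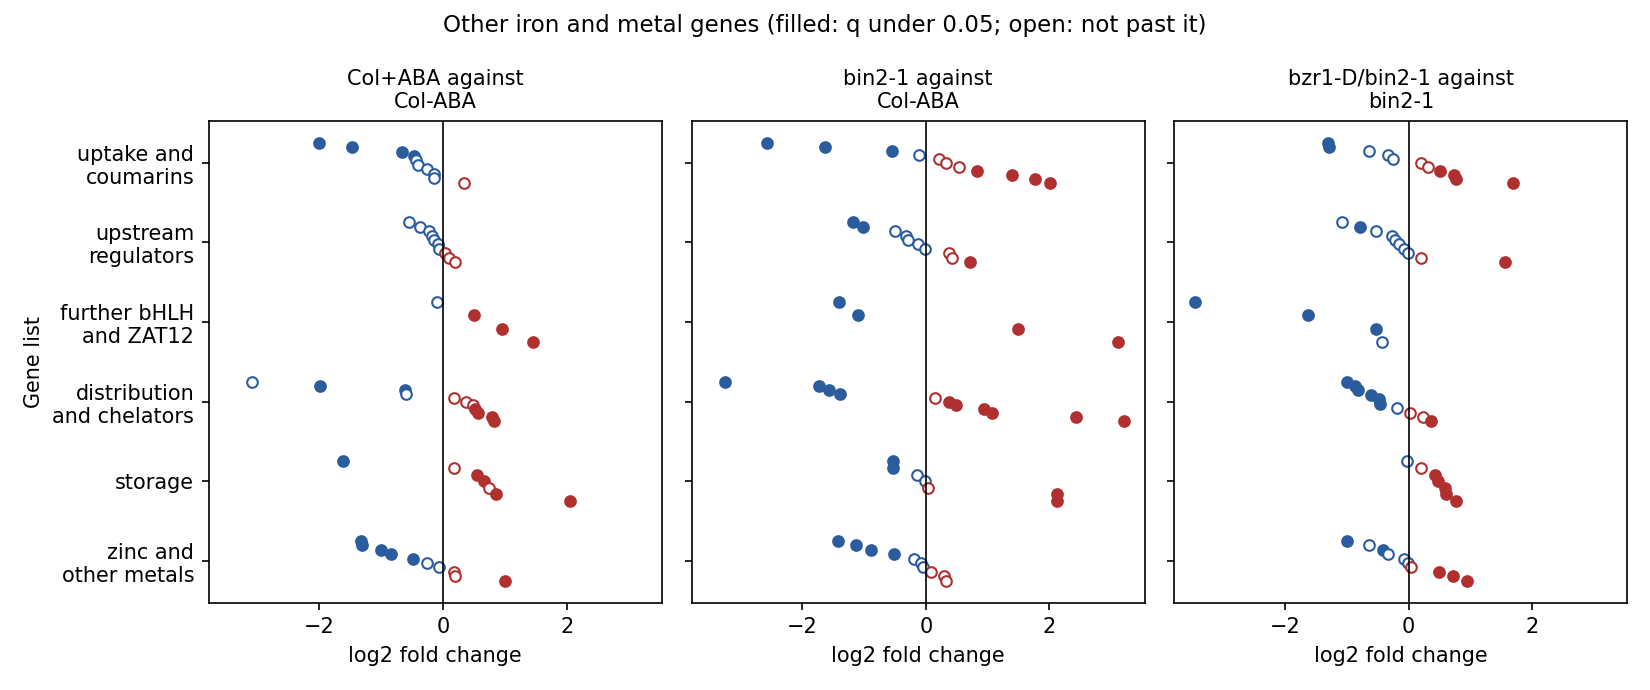
Log2 fold change of each tested gene of the 6 lists by the authors' deposited tables for the 3 comparisons, 1 point per gene; filled points have q under 0.05 and open points do not. In the uptake list no filled point lies above 0 with ABA, and in the storage list none lies below 0 in bzr1-D/bin2-1 against bin2-1.

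Genes with a like pattern were sought by Euclidean distance over the 3 log2 fold changes among 15566 genes that reached 5 FPKM in at least 1 group and were above 0 in every group. Nearest to IRT1 were EXPA14, an alpha-expansin gene, at a distance of 0.330, then AT1G49470 at 0.406, AT3G55720 at 0.414, AT5G02890 at 0.469 and AT1G36060 at 0.533. EXPA14 had log2 fold changes of -1.08 with ABA, 2.20 in bin2-1 and 0.58 with bzr1-D by the authors' deposited tables. Nearest to BHLH39 were WLIM1 at 0.0768, AT1G47395 at 0.186, AT2G47680 at 0.207, NUDX25 at 0.227 and AT5G08240 at 0.241. AT1G47395 stood at -0.18 with ABA, -1.01 in bin2-1 and -0.52 with bzr1-D on the log2 scale by the authors' deposited tables, and of these the bin2-1 value alone was called (q = 0.0144).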

How the data were processed

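RNA-seq of 8 root libraries in 4 groups, named by their titles, was analysed from 3 deposited tables. TopHat, Cufflinks and TAIR10 are named per the submitters' processing notes, their versions not given in the sources used here. Group values in the deposited tables were taken as FPKM because Cufflinks is named; the headers name only the groups. The fold change is the authors' ratio of both group values. The authors' p-value and q-value were used as they stand, from a test the sources used here do not name; 5e-05 is the smallest p, held by 2612 genes with ABA, 5421 in bin2-1 and 2265 with bzr1-D, so the smallest q do not rank genes. The deposited tables hold no counts, so depth is unknown and no count test, interval or replicate error could be had.

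Log2 fold changes were taken of the deposited ratio without a pseudocount and left out where either group is listed at 0. A gene counts as tested where its p is below 1. Tables were scaled separately and compared only through the shared groups, whose ratios ran from 1.06 to 1.07 over 18195 genes and from 0.955 to 0.978 over 18638 genes. The 10 genes and the lists were chosen with earlier results of these data known. All 10 genes are named; of each list the 2 largest called rises and falls per comparison are named, and the marker genes, the overlapping genes, IRT2 and the promoter windows were picked for display after values were seen. List names come from RefSeq TAIR10.1, which holds 32810 of the 33557 identifiers. The Benjamini-Hochberg step was tested on simulated data. Analyses used Python 3.11.15 and pandas 2.3.3. The alternatives tried were q under 0.01, at least 2-fold, a recomputed adjustment, a filter at 1 FPKM, pseudocounts of 0.1 and 1 FPKM, and centring on the median.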

Additional observations from a re-analysis of the deposited data

How the results depend on the processing

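The recomputed adjustment and the filter at 1 FPKM changed no call of the 10 genes, but the filter ended the calls of CYP82C4 and NAS3 in bin2-1, which left 30 of 32 calls in the 6 lists. With at least 2-fold required, the calls came to 2 of the 10 genes with ABA (PYE and BTS were lost) and 4 with bzr1-D (IRT1, BHLH39 and BTS were lost), and the calls in the 6 lists came to 9 with ABA and 6 with bzr1-D; in bin2-1 PYE and NAS4 were lost. A q under 0.01 lost IRT1 with ABA, BHLH101 in bin2-1, and BHLH38 and BHLH39 with bzr1-D. With a pseudocount of 1 FPKM the median log2 fold change of the 10 genes in bin2-1 was 0.0820. On single genes this pseudocount weighed most at low levels: NAS4 with bzr1-D came to -1.39, BHLH101 to 0.873 in bin2-1 and 0.316 with ABA, and BHLH100 to 0.37 in bin2-1. It also brought IRT1 with ABA to -0.641 and FRO2 in bin2-1 to 0.781. The sums for bzr1-D/bin2-1 against Col-ABA shrank with a pseudocount of 1 FPKM on rescaled levels, to 2.59 for IRT1, 1.76 for BHLH101, 1.03 for FRO2 and -0.74 for NAS4. Genes under 1 FPKM, such as BHLH100, are the least certain at an unknown depth. Leaving out a replicate was not run, because the tables hold 1 value per group. No paired analysis was possible because the columns carry no replicates.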
